A study of Mus musculus with 10 samples.

Results

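The heat shock proteins and DnaJ chaperones were the genes of the count table whose Ensembl identifier belongs, in the GRCm39 annotation, to a protein-coding gene with a symbol that starts with Hspa, Hspb, Hspd, Hspe, Hsph, Hsp90 or Dnaj. The annotation held 74 such genes, and 71 of them were among the 29883 genes of the table. Dnajb8, Dnajc5g and Hspb9 had no row. The 71 genes were 11 HSP70 genes, 3 HSP110 genes, 3 HSP90 genes, 6 small heat shock proteins, 3 chaperonin genes, 43 DnaJ genes of classes A (4), B (12) and C (27), and Hspbp1 and Hspbap1, whose products bind heat shock proteins and which the symbol rule also took in. The data were RNA sequencing counts of the nucleus accumbens (NAc), a part of the ventral striatum, from male mice of the inbred strains C57BL/6J (B6, n = 5) and DBA/2J (D2, n = 5). All mice were ethanol-naive and 9 weeks old, no group was treated, and each library came from 1 mouse. The study asked how the strains differ at baseline, so the comparison is D2 against B6 throughout.

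Chaperones bind unfolded or partly folded proteins and keep them from aggregating. HSP70 proteins do so in cycles of ATP binding and hydrolysis, DnaJ proteins (also called HSP40) bring them their clients and start the hydrolysis, and HSP110 proteins release the nucleotide. HSP90 acts later, on kinases and receptors, small heat shock proteins hold clients without ATP, and HSP60 with HSP10 folds proteins inside mitochondria. In neurons, HSP70 also strips clathrin from synaptic vesicles with the help of a DnaJ protein.

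Total counts lay between 96977262 and 116776714 reads per library. The D2 libraries held 7061356 more reads on average, a difference that did not pass a two-sided exact permutation test (p = 0.063, smallest possible p = 0.0079). All 9 striatal neuron markers were present in every library, with at least 13512 normalized counts on average, and 6 of the 9 passed the test as lower in D2 mice. Their summed level was 508242 to 649144 in B6 mice and 421403 to 511996 in D2 mice. B6 mice 3 and 5 stood apart from the other B6 mice. The summed level of 5 cortex neuron markers was 95610 and 97155 in these mice, 7592 to 16320 in the other 3 B6 mice, and 21955 to 60012 in D2 mice, and none of the 5 passed with edgeR, with DESeq2 or at an unadjusted p under 0.05. Once mice 3 and 5 are left out, every B6 mouse lies below every D2 mouse in this sum. A fit without them therefore cannot tell strain apart from the level of these markers. The sum of 5 oligodendrocyte markers, 3 of which passed as lower in D2 mice, was 628818 and 624511 in B6 mice 3 and 5, 429973 to 513710 in the other B6 mice, and 325132 to 475169 in D2 mice. Mice 3 and 5 were both above the other B6 mice for 22 of the 71 genes (31% against 19.9% of all genes) and both below them for 19 (26.8% against 21.9%). In tissue of mixed cells, fewer cells of a type and less RNA per cell cannot be told apart.

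Most heat shock protein and DnaJ genes were expressed at close levels in the 2 strains. Normalized counts, scaled to library size and composition, were tested with edgeR's quasi-likelihood test, and a gene passed at a Benjamini-Hochberg adjusted p under 0.05 over all genes. Of the 71 genes, 11 passed (15.5%), against 18.3% of all genes tested. Among protein-coding genes alone 21.5% passed, and 22.9% of those with at least 100 normalized counts on average. Higher in D2 mice were 5 (Dnajc17, Dnajc10, Hspbap1, Dnajc7 and Hspb7), where 8.5% of all genes were called in this direction. Lower in D2 mice were 6 (Hspb6, Hspa8, Hspa1a, Hspa2, Dnajc2 and Dnajc1), against 9.83% of all genes. With DESeq2 14 of the 71 passed, against 20.8% of all genes, and with the cortex marker level as a covariate 18, against 26.2% of all genes. Scaling to total counts alone gave 6 higher and 3 lower genes. The share of genes passing was therefore not above that of the table. The median log2 fold change was -0.01 over the 71 genes and 0.004 over all genes, and 42 of the 71 differed by less than 0.1 on the log2 scale. The values of the 5 mice of one strain all lay above or below those of the other for 11 genes (15.5%), against 16% of all genes. Of these, 10 had passed the test and the other was Dnajc11, with a log2 fold change of 0.06 ± 0.03 (SE, n = 5 per strain). Of the 11 genes that passed, 7 also passed in each of the 10 fits that left out 1 mouse: Hspb6, Hspa8, Dnajc17, Dnajc10, Hspbap1, Dnajc7 and Hspb7.

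**Figure D1:**
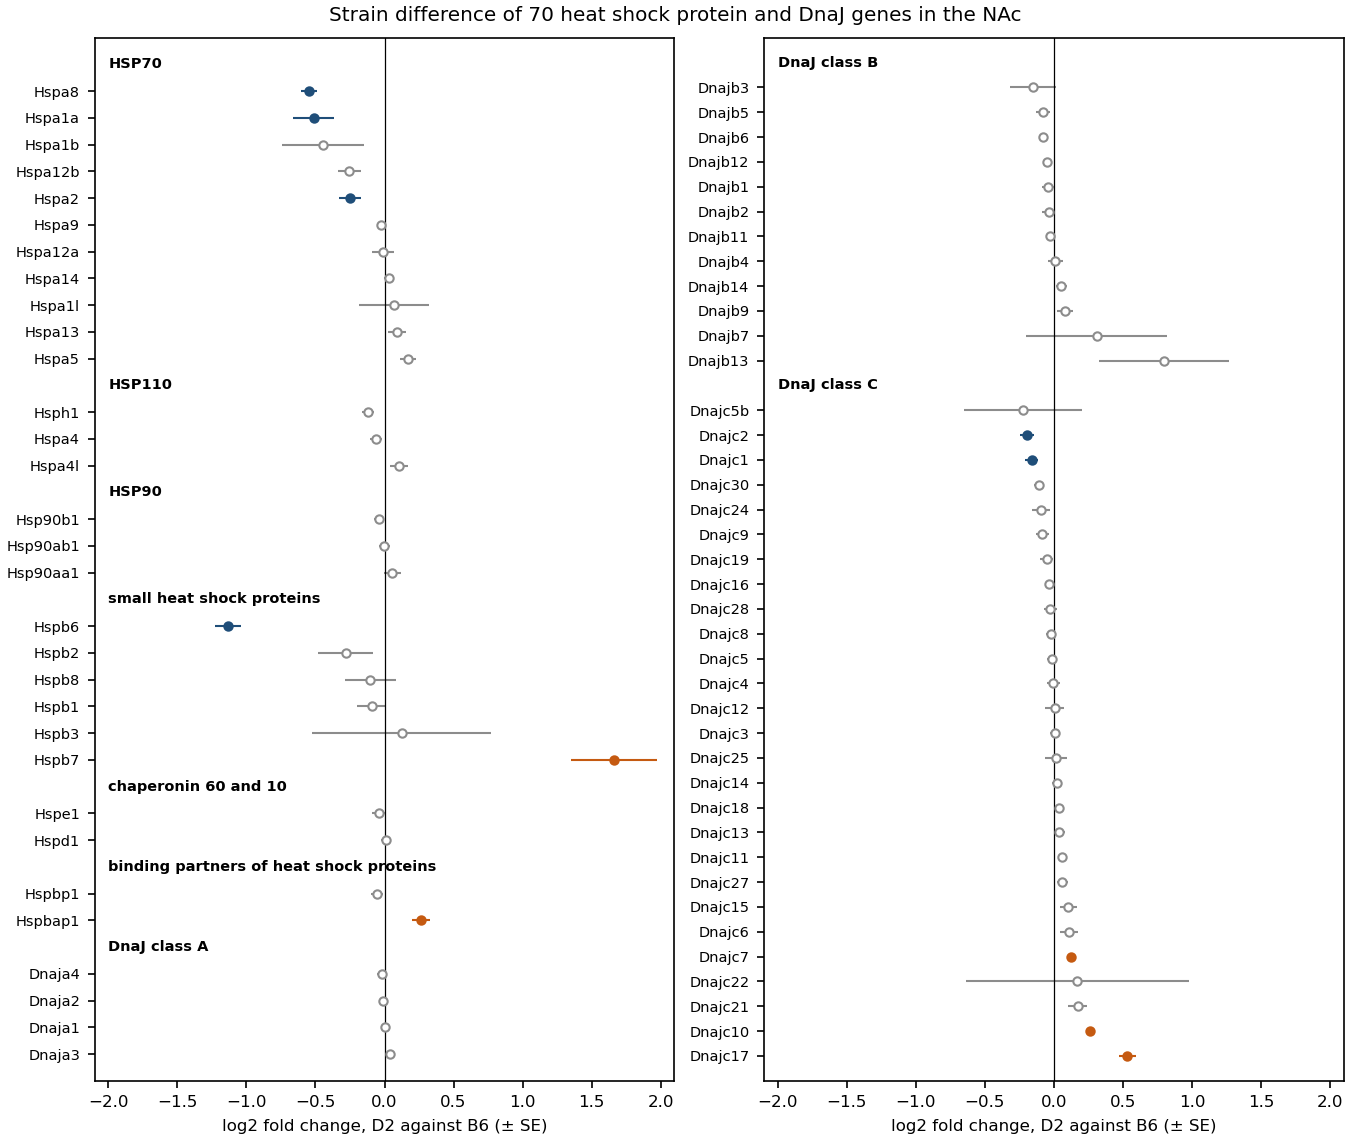
Log2 fold change of D2 against B6 (x axis, points with SE) for 70 of the 71 genes, grouped by family. Filled points passed the test (orange higher in D2, blue lower in D2), and open grey points did not. Most genes lie close to 0. Wide bars are seen for genes with few counts, and also for Hspb3 and Hspa1b, where B6 mice 3 and 5 lie far above the other B6 mice.

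The largest single change in reads was that of Hspa8, the constitutive HSP70 of the cytosol (HSC70), which uncoats clathrin-coated vesicles. Hspa8 lies at chr9:40711630-40731039 on the plus strand of GRCm39. Normalized counts were 105382, 102839, 114303, 97089 and 119827 in B6 mice 1 to 5 and 79183, 73445, 72503, 70527 and 73030 in D2 mice 1 to 5. Every D2 mouse lay below every B6 mouse, and the highest values were those of B6 mice 5 and 3. The log2 fold change was -0.55 ± 0.06 (SE, n = 5 per strain), which puts D2 mice at 68.3% of the B6 level (95% interval of the log2 value -0.67 to -0.42, edgeR adjusted p = 1.7e-05). Without B6 mice 3 and 5 it was -0.47, and the gene still passed.

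The other 10 HSP70 genes together gave 74301 to 79145 normalized counts in B6 mice and 76490 to 80874 in D2 mice, ranges that overlap. As a share of a library's reads, without scaling for composition, they made up 0.0691% to 0.0713% in B6 mice and 0.0720% to 0.0755% in D2 mice, which do not overlap and are higher in D2 mice. With Hspa8 included, the family gave 173084 to 198972 in B6 mice and 148032 to 160058 in D2 mice, with no overlap. Hspa8 made up 56.1% to 60.2% of the HSP70 counts in B6 mice and 47.6% to 49.5% in D2 mice. Over all 71 genes the share of a library's reads was 0.741% to 0.796% in B6 mice and 0.754% to 0.790% in D2 mice, so the total given to these genes overlapped between strains.

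**Figure D2:**
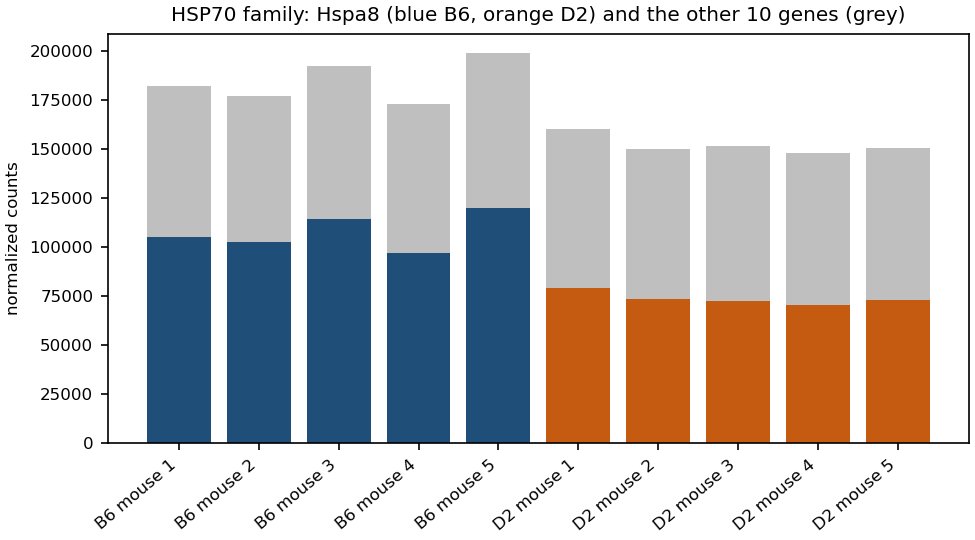
Stacked bars of normalized counts (y axis) of the HSP70 family in each of the 10 mice, with Hspa8 coloured and the other 10 genes in grey. The coloured part is lower in all 5 D2 mice, and the grey part overlaps between strains (74301 to 79145 in B6 and 76490 to 80874 in D2 mice).

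Hspa1a and Hspa1b encode the stress-inducible HSP70 and lie next to each other on chromosome 17. They are near-identical copies, so reads of one may have been counted for the other or discarded, and their separate values are uncertain. Hspa1a had 339, 281, 462, 281 and 473 normalized counts in B6 mice and 244, 271, 257, 270 and 244 in D2 mice. The strains did not overlap, but B6 mice 3 and 5 stood far above the other B6 mice. This gave a log2 fold change of -0.51 ± 0.15 (SE, edgeR adjusted p = 0.0308). The gene passed in 3 of the 10 fits with 1 mouse left out, and without B6 mice 3 and 5 the log2 fold change was -0.23 (adjusted p = 0.15). Hspa1b had 179, 157, 409, 198 and 447 normalized counts in B6 mice and 142, 209, 190, 290 and 190 in D2 mice. Its high values were again those of B6 mice 3 and 5, and the strains overlapped. Its log2 fold change was -0.44 ± 0.30 (adjusted p = 0.37) over all mice and 0.20 without B6 mice 3 and 5 (adjusted p = 0.56). With the cortex marker level as a covariate both genes passed, Hspa1a at -0.58 (adjusted p = 0.00015) and Hspa1b at -0.54 (adjusted p = 0.0044). Mice 3 and 5 were those with the high cortex and oligodendrocyte marker levels, and the part of these markers in the Hspa1a and Hspa1b values was not tested beyond these 2 fits.

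Heat shock factors bind inverted repeats of nGAAn. The windows from 250 bases before to 50 bases after the annotated start of every protein-coding gene in the table were searched on both strands in GRCm39 for 2 such units (GAANNTTC, head to head, or TTCNNGAA, tail to tail) and for 3 in a row (GAANNTTC followed by NN and GAA, which contains both of the shorter patterns). The windows of Hspa1a (chr17:35191221-35191244, minus strand) and Hspa1b (chr17:35178303-35178326, minus strand) hold the same head-to-head match in the same 24 bases, which shows how alike the copies are upstream of their starts. These are shown 5′ to 3′ with the match in capitals:

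Hspa1a: aactgctgGAAGATTCctggcccc

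Hspa1b: aactgctgGAAGATTCctggcccc

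The head-to-head pattern was found in 12 of the 71 windows (16.9%), against 6.47% of 17331 protein-coding genes, and 1 of the 12 genes (Hspa1a) had passed the test. The tail-to-tail pattern was found in 6 windows (8.45% against 7.53%), and 1 of these genes (Dnajc10) had passed. For comparison, 15.5% of the 71 genes and 18.3% of all genes tested had passed. The median log2 fold change was -0.02 for the genes with each pattern. No pattern matched in the window of Hspa8. A match is only a run of letters and not a measured binding site.

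**Figure D3:**
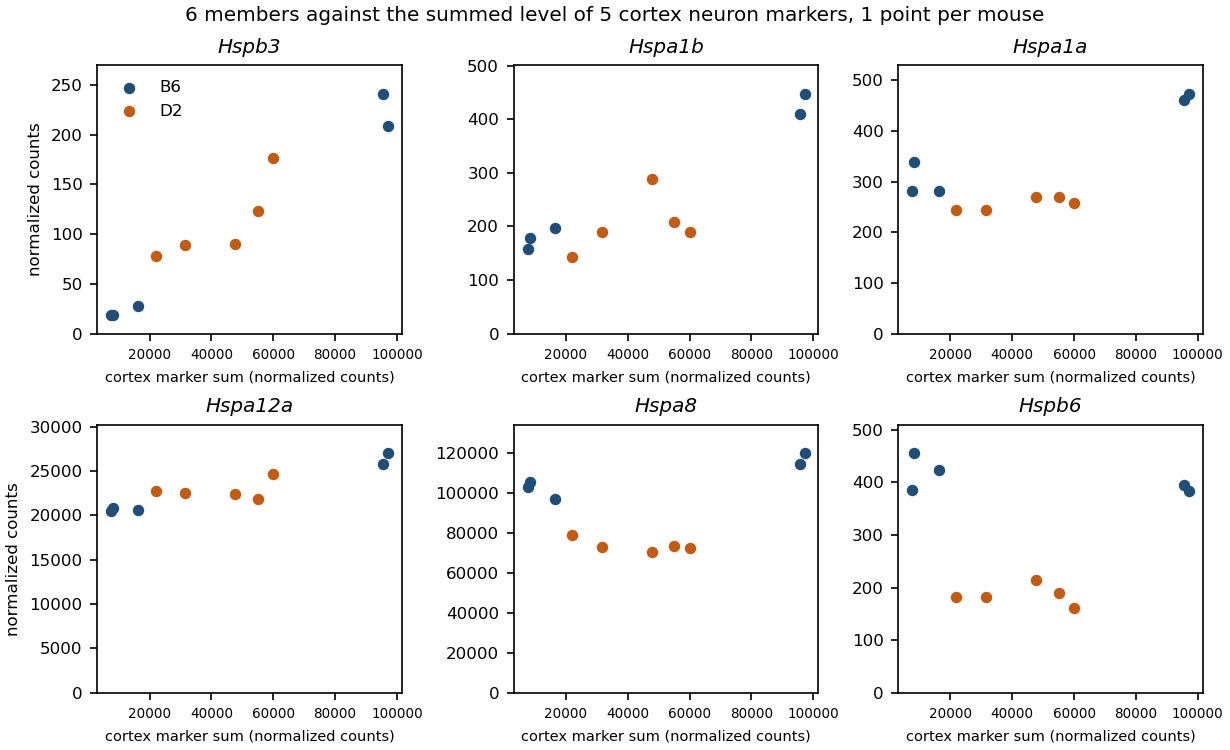
Normalized counts of 6 genes (y axes, from 0) against the summed level of 5 cortex neuron markers (x axis, normalized counts), 1 point per mouse. For Hspb3, Hspa1b, Hspa1a, Hspa12a and Hspa8 the 2 B6 mice at the right (3 and 5) are the highest, and for Hspb6 they are not. For Hspa1a, Hspa8 and Hspb6 all 5 B6 mice lie above all D2 mice.

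Among the other HSP70 genes, Hspa2, best known from the testis, was lower in D2 mice. It had 2625, 2459, 3113, 2926 and 3205 normalized counts in B6 mice and 2243, 2770, 2402, 2345 and 2277 in D2 mice. The strains overlapped, through D2 mouse 2 and the 2 lowest B6 mice. The strains differed by a log2 fold change of -0.25 ± 0.08 (SE, edgeR adjusted p = 0.0446), and the gene did not pass without B6 mice 3 and 5 (-0.15, adjusted p = 0.20) or with scaling to total counts (adjusted p = 0.063). With the cortex marker level as a covariate it passed, at -0.30 (adjusted p = 0.00047).

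Hspa5 encodes BiP, the HSP70 of the endoplasmic reticulum (ER). It had 20028, 17702, 16756, 19436 and 16979 normalized counts in B6 mice and 22250, 20490, 19254, 19905 and 20370 in D2 mice. The strains overlapped, as B6 mice 1 and 4 lay within the D2 range and the other B6 mice below it. Its log2 fold change of 0.17 ± 0.06 (SE) did not pass (edgeR adjusted p = 0.0549), although it passed with DESeq2 (adjusted p = 0.033) and with total counts (adjusted p = 0.040). Rabepk on the opposite strand covers 44.2% of the exon bases of Hspa5 and had a log2 fold change of 0.06 (adjusted p = 0.56). Hspa12b, an endothelial HSP70 relative, had 816, 971, 949, 917 and 965 normalized counts in B6 mice and 808, 874, 821, 725 and 644 in D2 mice. Its log2 fold change was -0.25 ± 0.08 (edgeR adjusted p = 0.0552), and it passed with DESeq2 (adjusted p = 0.022). Adissp on the opposite strand covers 36.1% of the exon bases of Hspa12b. It had 8355 normalized counts on average in B6 and 9042 in D2 mice (log2 fold change 0.11, edgeR adjusted p = 0.38). Of 5 endothelial markers, none passed with edgeR, 3 had an unadjusted p under 0.05 and 2 passed with DESeq2. Their summed level was 19115 to 23806 in B6 mice and 15637 to 21008 in D2 mice, and its part in the Hspa12b values was not tested. Hspa9, the mitochondrial HSP70 (mortalin), had a log2 fold change of -0.02 ± 0.03 with a 95% interval from -0.09 to 0.05. The remaining HSP70 genes (Hspa12a, Hspa13, Hspa14 and Hspa1l) lay between -0.01 and 0.09 and did not pass. Hspa12a had its highest values in B6 mice 3 and 5 (25787 and 26987, against 20440 to 20786 in the other B6 mice and 21802 to 24652 in D2 mice). Without these 2 mice it passed as higher in D2 mice (log2 fold change 0.14, adjusted p = 0.028), a value that was looked at after the main results were known. With the cortex marker level as a covariate its log2 fold change was -0.05 (edgeR adjusted p = 0.38).

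The HSP90 genes Hsp90ab1 and Hsp90aa1 had the highest mean levels per length of exon. None of the 3 HSP90 genes passed, with edgeR, with DESeq2 or at an unadjusted p under 0.05. The shares of all genes that passed were 18.3% with edgeR and 20.8% with DESeq2. Hsp90ab1, the constitutive cytosolic HSP90, had 26314 normalized counts per kb on average (SD 943, n = 10). It was followed by its inducible relative Hsp90aa1 with 14084 (SD 998) and by Hspa8 with 10462 (SD 2203), and the ranges of these last genes overlapped. Dnaja2 (4775), Hspa9 (4341), Hsp90b1 (4250), Hspd1 (4207), Dnajc5 (3620), Hspa4 (3556) and Hspa5 (3478) came next. Of these neighbours, Dnaja2 and Hspa9 did not overlap over the 10 mice, nor did Hspd1 and Dnajc5, whereas the others overlapped. The median of the 71 genes was 748 per kb and the lowest value 0.861 (Dnajc22). Exon length here takes in every base annotated as exon in any transcript, so this order need not be that of transcripts. In normalized counts not divided by length, Hspa8 (90813 on average) lay above Hsp90aa1 (64828).

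**Figure D4:**
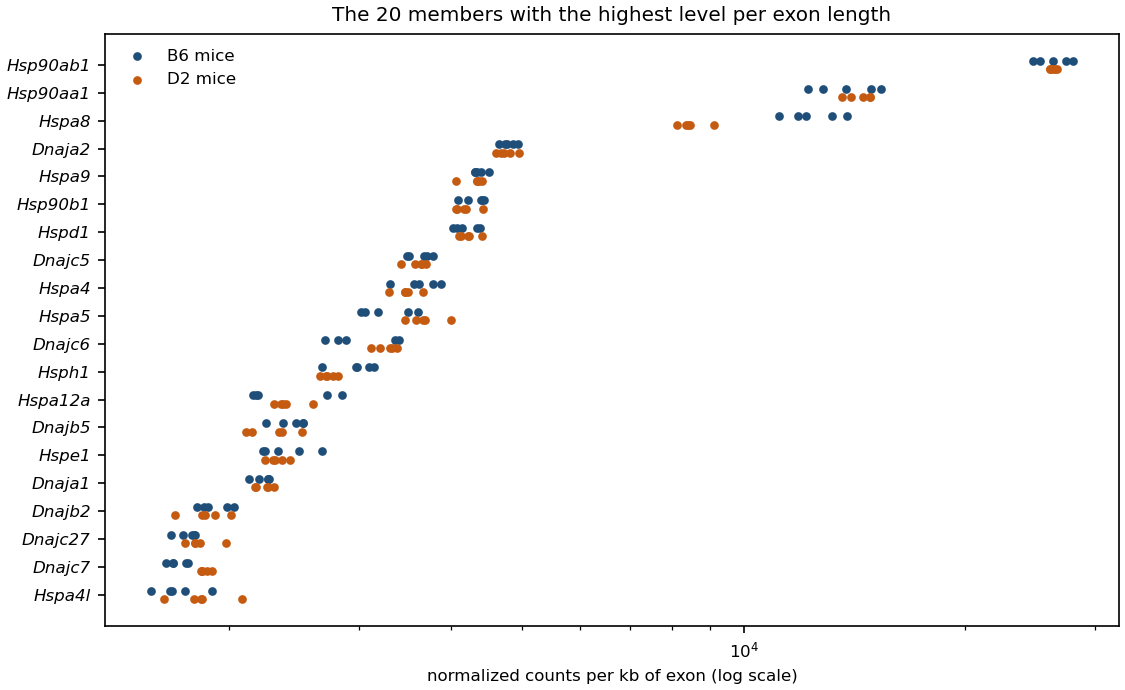
Normalized counts per kb of exon (x axis, log scale) of the 20 genes with the highest level, 1 point per mouse and strains offset vertically. Hsp90ab1 lies near 26314 in both strains, and Hspa8 is the gene among the first 10 whose B6 and D2 points do not overlap.

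Between strains, Hsp90ab1 had a log2 fold change of -0.0015 ± 0.04 (95% interval -0.09 to 0.09). Its normalized counts were 136297, 142179, 147952, 133370 and 151169 in B6 mice and 141920, 140899, 142897, 140695 and 143839 in D2 mice, so the D2 mice lay inside the B6 range. Hsp90aa1 had a log2 fold change of 0.06 ± 0.06 (-0.08 to 0.19) and Hsp90b1, the HSP90 of the ER (GRP94), one of -0.04 ± 0.04 (-0.12 to 0.04). B6 mice 3 and 5 were also the highest B6 mice for Hsp90aa1 (68466 and 70745, against 56330 to 63333 in the other B6 mice and 62563 to 68306 in D2 mice), and without them the gene passed (log2 fold change 0.15, edgeR adjusted p = 0.039). With the cortex marker level as a covariate it did not (0.03, adjusted p = 0.69).

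None of the 3 HSP110 genes passed with edgeR (18.3% of all genes) or DESeq2 (20.8% of all genes). Hsph1 was the 1 gene with an unadjusted p under 0.05. Hsph1 (HSP105) had 33034, 33156, 34444, 29715 and 34955 normalized counts in B6 mice and 31267, 30217, 29558, 30094 and 30796 in D2 mice. B6 mouse 4 lay within the D2 range and the other B6 mice above it, and the log2 fold change was -0.12 ± 0.04 (edgeR adjusted p = 0.074). Hspa4 had a log2 fold change of -0.06 ± 0.05 and Hspa4l one of 0.10 ± 0.06.

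Hspd1 (HSP60) and Hspe1 (HSP10) form the mitochondrial chaperonin and start from a shared region of chromosome 1 on opposite strands. Their log2 fold changes were 0.01 ± 0.04 (95% interval -0.07 to 0.08) and -0.04 ± 0.05 (-0.15 to 0.07). The 9 genes whose products work in mitochondria included none that passed with edgeR, against 18.3% of all genes. Among them 1 (Dnajc30) passed with DESeq2, against 20.8% of all genes, and had an unadjusted p under 0.05. Hspd1 and Hspe1 were the only genes of the 71 with the 3-unit heat shock element in their windows (2.82%, against 0.456% of protein-coding genes), and the windows share this stretch of DNA, in which 2 matches overlap in part. Each gene's forward match is printed, for Hspd1 from chr1:55127210-55127238 on the minus strand and for Hspe1 from chr1:55127215-55127243 on the plus strand, with the 13 matching letters in capitals:

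Hspd1: gccttccgGAAGGTTCTAGAAcggaccgt

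Hspe1: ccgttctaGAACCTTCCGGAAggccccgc

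The largest fold change among genes with at least 100 normalized counts on average was that of Hspb6. Hspb6 encodes the small heat shock protein HSP20, known from muscle, and lies at chr7:30251603-30256218 on the plus strand. It had 455, 385, 395, 423 and 384 normalized counts in B6 mice and 183, 189, 162, 214 and 183 in D2 mice. The lowest B6 mouse lay well above the highest D2 mouse. The log2 fold change was -1.13 ± 0.09 (SE, n = 5 per strain, 95% interval -1.33 to -0.94, edgeR adjusted p = 1.51e-06), which puts D2 mice at 45.6% of the B6 level. Leaving out 1 mouse moved it between -1.19 and -1.09. Lin37 on the opposite strand, which shares 11.8% of the exon bases of Hspb6, changed the other way (log2 fold change 0.19 ± 0.05, adjusted p = 0.0103), and Proser3, which shares 5.05%, had a log2 fold change of -0.12 (adjusted p = 0.38).

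Hspb7, a cardiac small heat shock protein, was higher in D2 mice at very low counts. It had 4, 6, 7, 6 and 12 normalized counts in B6 mice and 31, 23, 20, 16 and 23 in D2 mice, with no overlap. The difference on the log2 scale was 1.66 ± 0.31 (95% interval 0.99 to 2.33, edgeR adjusted p = 0.00198), and the gene falls below the mean count required of named genes, so it is named after its values were seen. Hspb1 (HSP27) had 260 to 347 normalized counts in B6 mice and 251 to 324 in D2 mice, and its log2 fold change of -0.09 ± 0.11 did not pass. Hspb8 (HSP22) varied widely in both strains, from 914 to 1636 in B6 mice and from 871 to 1665 in D2 mice (log2 fold change -0.10 ± 0.18).

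Hspb3, a small heat shock protein of muscle, was ordered like the cortex markers. Its normalized counts were 18, 19, 241, 28 and 209 in B6 mice and 78, 123, 177, 90 and 89 in D2 mice. B6 mice 3 and 5 had the highest values of all 10 mice and the other B6 mice the lowest. Its log2 fold change was 0.12 ± 0.65 (edgeR adjusted p = 0.93) over all mice, 2.36 without B6 mice 3 and 5 (adjusted p = 0.00017) and 0.39 with the cortex marker level as a covariate (adjusted p = 0.13). The gene was chosen after its values were seen. Without B6 mice 3 and 5, 13 of the 71 genes passed, against 19.2% of all genes, and 8 of these were among the 11 of all mice. The 5 others were Hspb3, Dnajc6, Hsp90aa1, Hspa12a and Dnajc9 (log2 fold change -0.15). None of these 5 passed with the cortex marker level as a covariate.

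Of all genes 18.3% passed with edgeR and 20.8% with DESeq2, but none of the 16 class A and B DnaJ genes did. None of the 16 had an unadjusted p under 0.05 either. These classes carry the J domain at the amino terminus and hand clients to HSP70. The class A log2 fold changes lay between -0.02 and 0.04, and that of Dnaja1, a main partner of Hspa8 in the cytosol, was 0.01 ± 0.03 (95% interval -0.06 to 0.07). Smu1 on the opposite strand covers 77.9% of the exon bases of Dnaja1. It had 5799 normalized counts on average and a log2 fold change of -0.0043 (edgeR adjusted p = 0.95). Dnajb1, the stress-inducible HSP40, had 4220 to 4557 normalized counts in B6 mice and 4001 to 4641 in D2 mice, with a log2 fold change of -0.04 ± 0.04. Dnajb5 (-0.08 ± 0.05) and Dnajb9, an ER protein that binds BiP (0.08 ± 0.06), did not pass either. Dnajb13, a protein of motile cilia and sperm tails, ranged from 23 to 65 normalized counts in B6 mice and from 24 to 139 in D2 mice, where mice 2 and 4 were high. The strain difference was 0.80 ± 0.47 on the log2 scale (edgeR adjusted p = 0.30). The summed level of 5 ependymal markers, genes of ciliated cells, was also highest in D2 mice 2 and 4 (1980 and 2130, against 699 to 1113 in the other D2 mice and 1242 to 1673 in B6 mice). Dnajb13 shares 30.6% of its exon bases with Ucp2 on the opposite strand, which rose from 1986 ± 165 to 3295 ± 358 normalized counts (SD, n = 5 per strain; log2 fold change 0.73, adjusted p = 1.78e-05). The part of either in the Dnajb13 values was not tested.

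Of the 27 class C DnaJ genes, 3 were higher and 2 lower in D2 mice, a share (18.5%) close to the 18.3% of all genes. The share of protein-coding genes was 21.5%. Dnajc17, a J protein linked to pre-mRNA splicing, showed the largest difference of the class. It lies at chr2:119002981-119039379 on the minus strand. Its normalized counts were 1051, 1013, 870, 986 and 896 in B6 mice and 1354, 1396, 1391, 1435 and 1396 in D2 mice. All D2 mice lay above all B6 mice, and the D2 mice were closely grouped. The log2 fold change was 0.53 ± 0.06 (SE, 95% interval 0.41 to 0.66, edgeR adjusted p = 2.63e-05), a level 44.7% higher in D2 mice. Zfyve19 on the opposite strand shares 10.7% of its exon bases and had a log2 fold change of 0.11 (adjusted p = 0.067).

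Dnajc10 (ERdj5), which reduces disulfide bonds in the ER, was also higher in D2 mice. It lies at chr2:80145787-80184941 on the plus strand. It had 9804, 9805, 9072, 9450 and 9461 normalized counts in B6 mice and 11630, 11062, 11226, 11730 and 11562 in D2 mice. The strains did not overlap, and the log2 fold change was 0.27 ± 0.03 (95% interval 0.20 to 0.34, edgeR adjusted p = 6.33e-05).

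Dnajc7 (TPR2), which binds both HSP70 and HSP90, had 17724 to 19016 normalized counts in B6 mice and 19803 to 20481 in D2 mice. Its difference was small but without overlap, at a log2 fold change of 0.12 ± 0.03 (edgeR adjusted p = 0.0123). Without B6 mice 3 and 5 it was 0.10 (adjusted p = 0.0508). Cnp, a myelin gene on the opposite strand with 6.2% of the exon bases, changed the other way (log2 fold change -0.32, adjusted p = 0.036). Hspbap1, which binds small heat shock proteins, had 639, 595, 634, 639 and 733 normalized counts in B6 mice and 772, 762, 834, 752 and 777 in D2 mice. B6 mouse 5 came close to the lowest D2 mouse without reaching it, and the log2 fold change was 0.27 ± 0.06 (adjusted p = 0.0117).

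The class C genes that were lower in D2 mice were Dnajc2 and Dnajc1. Dnajc2, a J protein of the ribosome, had 3394 to 4200 normalized counts in B6 mice and 3086 to 3299 in D2 mice (log2 fold change -0.20 ± 0.05, edgeR adjusted p = 0.0222). Pmpcb on the opposite strand, with 15.1% of the exon bases, was higher in D2 mice (0.16, adjusted p = 0.0145). Dnajc1, a J protein of the ER membrane, had 3184, 3156, 3227, 3510 and 3171 normalized counts in B6 mice and 2736, 3016, 2852, 3107 and 2826 in D2 mice (log2 fold change -0.16 ± 0.05, adjusted p = 0.0273). The strains did not overlap for either gene. With scaling to total counts neither passed (adjusted p = 0.069 and 0.094), and leaving out 1 mouse kept Dnajc2 in 8 and Dnajc1 in 6 of 10 fits.

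The J proteins that work with Hspa8 at the synapse did not pass. Dnajc5 (cysteine string protein), which sits on synaptic vesicles, had 38069 to 41237 normalized counts in B6 mice and 37355 to 40290 in D2 mice, with a log2 fold change of -0.01 ± 0.04 (95% interval -0.09 to 0.06). Dnajc6 (auxilin), which recruits Hspa8 to clathrin coats, had 25249, 24627, 29358, 23591 and 29759 in B6 mice and 29113, 27265, 29626, 28977 and 28091 in D2 mice. B6 mice 3 and 5 lay within or above the D2 range and the other B6 mice below it. Its log2 fold change was 0.11 ± 0.06 (edgeR adjusted p = 0.29) over all mice and 0.22 without B6 mice 3 and 5 (adjusted p = 0.0013). With the cortex marker level as a covariate it was 0.08 (adjusted p = 0.18). Dnajc30 was the remaining gene with an adjusted p under 0.1 besides Hspa5, Hspa12b and Hsph1, at a log2 fold change of -0.11 ± 0.04 (adjusted p = 0.057).

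The 14 genes of the ER included 1 that was higher (Dnajc10) and 1 that was lower (Dnajc1) in D2 mice. This is 14.3%, against 18.3% of all genes and 21.5% of protein-coding genes. The ER stress response element (CCAAT and CCACG with 9 bases between them, searched on both strands) was found in the windows of Hspa5, Hsp90b1 and Dnajc3, which is 4.23% of the 71 genes against 0.115% of protein-coding genes. They are shown as the members with this element, which is known from genes induced by the unfolded protein response. The printed stretches are chr2:34662032-34662060 on the plus strand for Hspa5, chr10:86541497-86541525 on the minus strand for Hsp90b1 and chr14:119175234-119175262 on the plus strand for Dnajc3, with the match in capitals:

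Hspa5: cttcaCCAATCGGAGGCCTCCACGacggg

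Hsp90b1: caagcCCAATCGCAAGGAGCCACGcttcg

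Dnajc3: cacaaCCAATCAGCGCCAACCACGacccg

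Their log2 fold changes were 0.17, -0.04 and 0.01, and none passed. Dnajc3 (P58IPK), an ER helper of BiP, had 4841 to 5455 normalized counts in B6 mice and 4960 to 5390 in D2 mice.

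**Figure D5:**
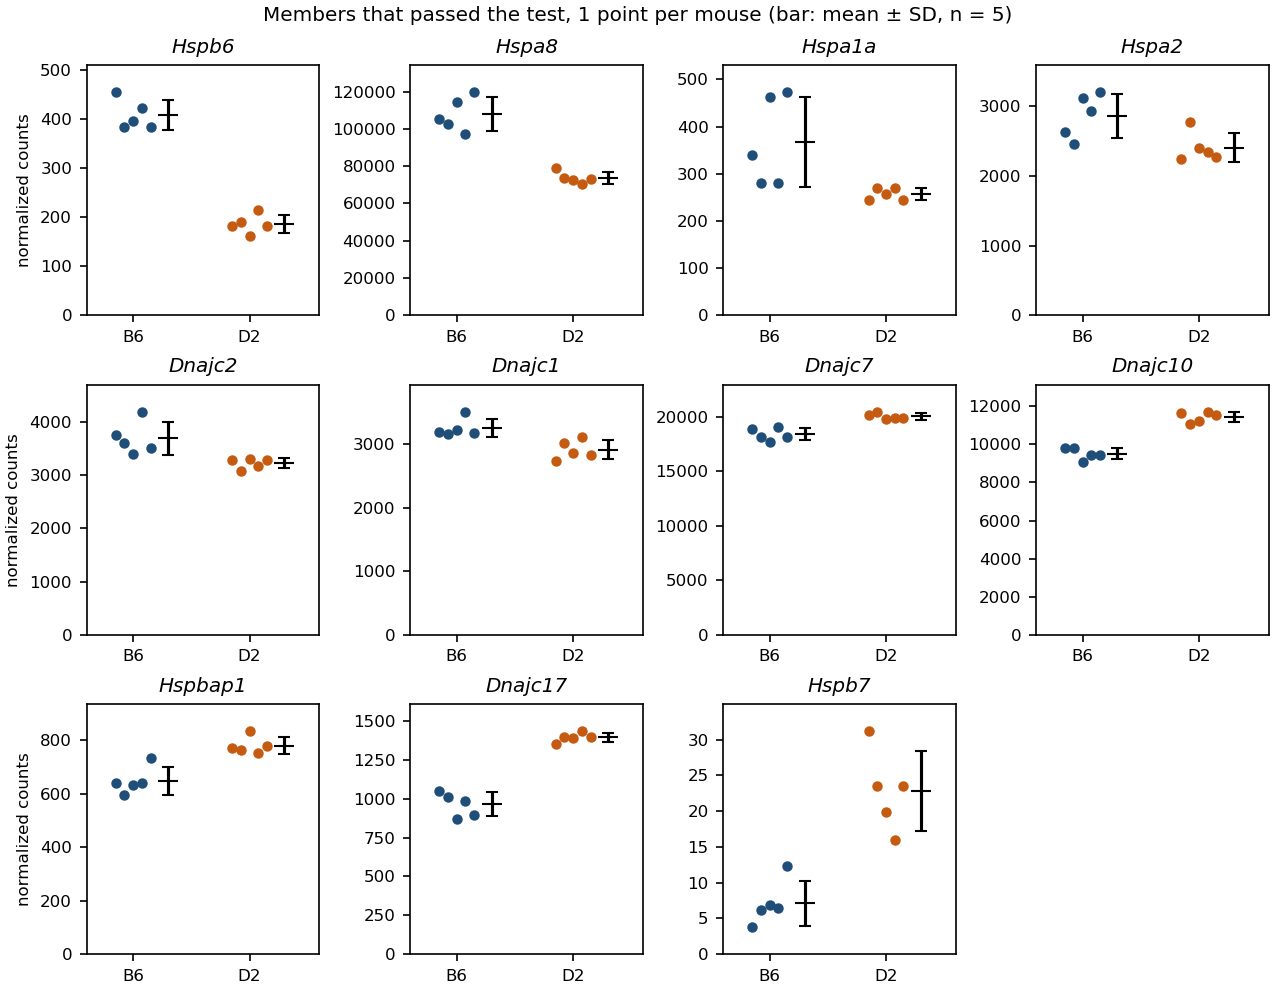
Normalized counts (y axes, from 0) of the 11 genes that passed the test, 1 point per mouse, with the mean ± SD (n = 5 per strain) beside the points. Hspb6 and Hspa8 show the widest gaps among the lower genes and Dnajc17 and Hspb7 among the higher ones, and for Hspa2 the strains overlap.

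Of 69 genes that work with these families under other symbols, 6 passed, 3 in each direction (8.7%, against 18.3% of all genes and 21.5% of protein-coding genes). None of 13 HSP70 co-chaperones and none of 6 heat shock factors passed with edgeR or DESeq2, and 4 and 1 of them had an unadjusted p under 0.05. Hsf1, the main heat shock factor, had 5193 to 5670 normalized counts in B6 mice and 5325 to 5465 in D2 mice (log2 fold change -0.01 ± 0.03, edgeR adjusted p = 0.83). In a group of 16 genes, made up of HSP90 co-chaperones and the HSP90 relative Trap1, 1 passed with edgeR. With DESeq2 3 of the 16 passed, Trap1 among them, and 4 had an unadjusted p under 0.05. The gene that passed with edgeR was Ahsa1, which speeds the ATP hydrolysis of HSP90 and was lower in D2 mice (-0.16 ± 0.04, adjusted p = 0.0232). It did not pass without B6 mice 3 and 5 (-0.12, adjusted p = 0.10) or with total counts (adjusted p = 0.051). Without B6 mouse 2 or D2 mouse 4 its edgeR adjusted p was 0.059 and 0.060. Of 15 chaperonin and prefoldin genes, the prefoldin subunits Pfdn2 and Vbp1 passed in opposite directions. Pfdn2 had 5897 to 6490 normalized counts in B6 mice and 5046 to 5543 in D2 mice (-0.26 ± 0.04, adjusted p = 0.000232). Vbp1 had 4147 to 4757 in B6 mice and 5193 to 5707 in D2 mice (0.29 ± 0.04, adjusted p = 0.000444). Neither overlapped between strains.

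Cryab (alpha B crystallin), a small heat shock protein by structure, was lower in D2 mice. It had 5299, 6444, 7684, 5176 and 8112 normalized counts in B6 mice and 5236, 4695, 4571, 3546 and 4139 in D2 mice. B6 mice 3 and 5 were the highest, and the lowest B6 mouse fell just below the highest D2 mouse. The difference on the log2 scale was -0.56 ± 0.13 (edgeR adjusted p = 0.0103), and -0.35 without B6 mice 3 and 5 (adjusted p = 0.038). The oligodendrocyte marker sum was also highest in those mice, and its part in the Cryab value was not tested. Clpx, a mitochondrial unfoldase (0.13 ± 0.03, adjusted p = 0.0188), and Pdia3, an ER disulfide isomerase (0.10 ± 0.03, adjusted p = 0.024), were slightly higher in D2 mice. Without B6 mice 3 and 5 neither passed (adjusted p = 0.094 and 0.057), and leaving out 1 mouse kept Clpx in 8 and Pdia3 in 4 of 10 fits.

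Of the 71 genes, 36 share exon bases with another gene of the table, 34 of them with one on the opposite strand. Since the strand setting of the counting was not given in the sources used here, reads of such neighbours cannot be told apart with certainty.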

How the data were processed

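NAc tissue of 5 B6 and 5 D2 mice was sequenced from poly-A libraries, 1 per mouse. The authors trimmed reads with fastp, aligned both strains to the B6 reference (GRCm39) with STAR 2.7.10b, sorted with Samtools 1.6 and assigned reads to genes with featureCounts. Raw counts were deposited, without genes whose median was 0. The authors' table also lists a median, a mean and a number of low samples per gene, treated as scores and not used. How D2 variants affect alignment to the B6 genome was not tested.

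Counts of all 29883 genes were fitted in R 4.3.3 with edgeR 4.0.16 (TMM scaling, two-sided quasi-likelihood test) with strain as the only factor, and p-values were adjusted by the Benjamini-Hochberg method over all genes. Standard errors were derived from each log2 fold change and its F value. Normalized counts are counts divided by the TMM-scaled library size and multiplied by the mean of these sizes. Symbols, exon lengths and windows came from GENCODE M39 (GRCm39), which held 29519 of the genes. Of the 71 members, 1 is counted but not reported here by name or value. The genes named are those that passed with a mean of at least 100 normalized counts, the 10 highest per kb and a chosen list, and others are named after their values were seen. Members and lists were chosen with earlier results of these data known, and the marker and partner lists came from general knowledge. On simulated counts of 29883 genes for this comparison, edgeR found 193 of 200 genes changed by a log2 of 1, with 10 false calls. The changed genes all had a mean of at least 100 counts, and smaller changes or lower counts were not tried. Alternatives were DESeq2 1.42.0, 3 other scalings, 2 count filters, the replicate number as a block and leaving out each mouse. The cortex marker covariate and the fit without B6 mice 3 and 5 were added after the data were seen.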

Additional observations from a re-analysis of the deposited data

Results flagged for a closer look

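In 94 groups of 5 mice (47 named genes in each strain), 3 held a mouse whose gap to the nearest other mouse exceeded 0.71 of the range of the group, where chance gives about 1 in 20. Dnajc1 was high in B6 mouse 4 (3510 normalized counts, against 3156 to 3227 in the other B6 mice). Dnajc11 was low in B6 mouse 5 (6936, against 7133 to 7205). Hspa9 was low in D2 mouse 2 (20840, against 22253 to 22667).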

How the results depend on the processing

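Of the 71 genes, between 8 and 14 passed when 1 mouse was left out (4636 to 5676 of all 29883 genes). With DESeq2 14 passed (6208 of all genes) and with upper-quartile scaling 12 (5505). DESeq2's size factors in edgeR gave 11 (5499 of all genes) and total counts 9 (5480). The filters on low counts kept 68 and 66 of the 71 genes, and 13 and 12 of those passed. Over all genes, 5287 of 21513 and 4532 of 19119 passed with these filters. DESeq2 called all 11 of the genes called by edgeR. With the cortex marker level as a covariate 18 passed and 11 of the 69 related genes. All 11 genes of the main comparison were among the 18, and the 7 others were Hspa5, Hspa1b, Hspa12b, Hspa13, Hsph1, Dnajc21 and Dnajc30. The cause was not tested. Over all genes, total counts gave 3012 higher and 2468 lower genes, against 2541 and 2937. Total counts also raised the median log2 fold change of all genes from 0.0036 to 0.035. The difference in depth ranged from 5202662 to 8825366 reads with 1 mouse left out, and passed without B6 mouse 1 or D2 mouse 5 (exact permutation p = 0.032 in both).

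Deviations from the strain means were correlated at 0.37, -0.41, 0.36, 0.03 and -0.29 between same-numbered mice of the 2 strains. For B6 mice 1 and 3 the same-numbered D2 mouse had the highest correlation, and for mice 2, 4 and 5 another D2 mouse did. These 5 values of mixed sign cannot decide whether the numbers pair the mice. With the replicate number as a block 10 of the 71 genes passed and 4731 of all genes. Hspa1a (adjusted p = 0.065) and Hspa2 (0.091) no longer passed with the block, and Hspa5 did (0.019). Of the related genes 4 passed, without Clpx (0.056) and Pdia3 (0.074).

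Over all 71 genes the sign turned for 10 with total counts, 13 without B6 mice 3 and 5, 2 with the block, 3 with the cortex covariate and 0 with DESeq2, none of which had passed. The values that follow are for the 47 genes named in the text. With total counts the log2 fold changes were 0.020 for Dnaja2, 0.017 for Dnajc5, 0.031 for Hsp90ab1, 0.025 for Hspa12a, 0.0077 for Hspa9 and 0.016 for Hsf1. With the replicate block they were 0.00011 for Hsp90ab1 and 0.0013 for Hspa12a. Without B6 mice 3 and 5 they were 0.0083 for Dnaja2, 0.010 for Dnajc5, 0.048 for Hsp90ab1, 0.14 for Hspa12a, -0.021 for Hspa13, 0.20 for Hspa1b and -0.025 for Hspd1. Dnaja1 was at -0.00090 with edgeR's filter and Hspb8 at 0.026 with the cortex covariate. Leaving out 1 mouse gave -0.0094 to 0.016 for Dnaja1, -0.0088 to 0.035 for Dnajc3, -0.031 to 0.0033 for Dnajc5, -0.038 to 0.0014 for Hsf1, -0.024 to 0.014 for Hsp90ab1, -0.047 to 0.049 for Hspa12a, -0.15 to 0.70 for Hspb3, -0.28 to 0.020 for Hspb8, -0.011 to 0.024 for Hspd1 and -0.073 to 0.0014 for Hspe1.

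Counts under 100 limit Hspb7, Dnajb13 and 6 other genes, whose intervals are wide.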
